A study of Mus musculus with 4 samples.

Results

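Far intergenic peaks are the H3K4me3 peaks of mouse heart that overlap no gene body of the GENCODE M21 annotation and lie more than 10000 bp from every annotated transcript start, whatever the type of gene. Of the 24996 peaks in the list called replicated, 1454 (5.82%) met this rule. They covered 875735 bp, which was 2.86% of the sequence covered by all peaks. Chromatin immunoprecipitation with sequencing mapped the mark in frozen heart of female B6CASTF1/J mice, an F1 hybrid strain, aged 2 months. The 4 libraries came from 2 pools, G and H, each of 2 heart biosamples with 2 technical replicates. The labels call the pools biological replicates, yet all name the same donor record, so whether the pools held separate animals is not known. There was 1 tissue and no treatment, so no test between conditions was possible, and shares carry exact (Clopper-Pearson) 95% binomial intervals that cover counting error only.

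H3K4me3 is trimethylated lysine on the tail of histone H3, deposited by the SET1 and MLL methyltransferases at the starts of genes transcribed by RNA polymerase II, above all where the DNA is rich in CpG dinucleotides. Away from annotated starts, the mark is known at promoters that a gene annotation does not list, beside tRNA genes, which RNA polymerase III transcribes, and, at low levels, at some active enhancers. Enhancers are better known for the monomethylated form of the same lysine, which was not measured here.

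Heart tissue was represented in the lists. All 6 heart muscle markers (Myh6 and Tnnt2 among them), all 5 endothelial markers and all 5 fibroblast markers had a peak within 1000 bp of a start, and so did 1 of 2 erythroid markers (Gata1 had none). None of the 4 leukocyte markers, Ptprc, Cd68, Spi1 and Cd3e, and none of the 3 hepatocyte markers, Alb, Apoa1 and Ttr, had one. Of a wider list of 16 immune and blood genes, 5 were marked, Runx3 among them. Peaks of bulk tissue do not tell which cells carry them, and a mark in fewer cells cannot be told apart from a weaker mark in every cell.

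The summits of 6 peaks are shown first as sequence, because the strongest far intergenic peaks differed from the typical one in their CpG content. Each line holds the 300 bp around the summit of 1 peak on the plus strand of GRCm38 (mm10), from the RefSeq copy of that build, with CpG dinucleotides in capitals. The reference is C57BL/6J, while the mice also carry a CAST genome, so the letters may differ in these animals. The first 4 windows are those of the 4 peaks with the highest signal value, each named by its nearest protein-coding gene, and the last 2 belong to the strongest peaks nearest to Dcn (decorin, a proteoglycan of fibroblasts) and to Klf4 (a transcription factor of endothelium and other cells).
near Pum2, chr12:8640796-8641095, plus strand: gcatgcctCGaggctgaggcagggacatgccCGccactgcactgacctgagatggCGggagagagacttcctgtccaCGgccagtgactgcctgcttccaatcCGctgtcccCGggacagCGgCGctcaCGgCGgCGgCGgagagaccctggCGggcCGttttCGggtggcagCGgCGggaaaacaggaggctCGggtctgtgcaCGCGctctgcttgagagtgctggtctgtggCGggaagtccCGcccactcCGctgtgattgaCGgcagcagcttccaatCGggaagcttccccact
near Wnt10a, chr1:74817055-74817354, plus strand: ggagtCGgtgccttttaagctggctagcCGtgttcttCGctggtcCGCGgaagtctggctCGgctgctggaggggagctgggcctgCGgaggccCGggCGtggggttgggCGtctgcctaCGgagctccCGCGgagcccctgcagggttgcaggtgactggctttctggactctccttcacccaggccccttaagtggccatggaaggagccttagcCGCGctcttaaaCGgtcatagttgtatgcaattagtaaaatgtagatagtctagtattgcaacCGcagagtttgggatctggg
near Cfap126, chr1:171102057-171102356, plus strand: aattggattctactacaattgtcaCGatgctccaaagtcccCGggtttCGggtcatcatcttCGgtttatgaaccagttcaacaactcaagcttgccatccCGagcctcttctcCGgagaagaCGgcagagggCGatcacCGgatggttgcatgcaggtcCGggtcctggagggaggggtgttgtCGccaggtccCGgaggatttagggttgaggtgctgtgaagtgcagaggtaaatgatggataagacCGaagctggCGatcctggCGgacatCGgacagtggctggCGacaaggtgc
near Rbx1, chr15:81522969-81523268, plus strand: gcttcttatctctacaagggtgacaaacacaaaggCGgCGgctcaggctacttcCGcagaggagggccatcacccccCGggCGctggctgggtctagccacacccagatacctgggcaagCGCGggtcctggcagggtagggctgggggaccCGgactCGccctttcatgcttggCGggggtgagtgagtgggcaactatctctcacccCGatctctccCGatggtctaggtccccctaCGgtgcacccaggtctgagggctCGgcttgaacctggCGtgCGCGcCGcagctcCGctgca
near Dcn, chr10:97313374-97313673, plus strand: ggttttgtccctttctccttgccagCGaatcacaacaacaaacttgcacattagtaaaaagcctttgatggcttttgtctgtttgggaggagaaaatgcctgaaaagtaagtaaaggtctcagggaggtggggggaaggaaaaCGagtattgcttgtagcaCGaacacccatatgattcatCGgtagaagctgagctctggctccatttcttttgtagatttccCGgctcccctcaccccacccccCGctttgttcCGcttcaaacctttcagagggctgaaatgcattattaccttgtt
near Klf4, chr4:55651332-55651631, plus strand: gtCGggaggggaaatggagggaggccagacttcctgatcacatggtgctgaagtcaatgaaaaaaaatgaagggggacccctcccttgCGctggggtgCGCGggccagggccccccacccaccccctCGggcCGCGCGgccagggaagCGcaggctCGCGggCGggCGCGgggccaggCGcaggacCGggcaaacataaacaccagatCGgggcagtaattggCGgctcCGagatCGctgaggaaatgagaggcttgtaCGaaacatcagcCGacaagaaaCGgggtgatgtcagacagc
The window near Pum2 held 25 CpGs and that near Klf4 held 23, against 7 in the window near Dcn. The windows near Wnt10a and Cfap126 held 17 each and the window near Rbx1 held 19. Of the motifs searched, the GC box was found near Pum2 and Klf4, the CCAAT box near Pum2, Cfap126 and Klf4, the GATA motif near Rbx1, and none near Wnt10a or Dcn.

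A second group of sequences is shown because 31 far intergenic peaks lay within 1000 bp of the start of a tRNA gene listed by RefSeq. The 5 genes below lay inside 4 of the stronger such peaks, but were not taken strictly in order of signal. Each is printed 5′ to 3′ on its own strand from RefSeq's GRCm38.p6, and the capitals mark GGTTCGA, the first letters of the B box, an internal promoter element of tRNA genes.
n-TGgcc3, chr1:74816747-74816817, minus strand: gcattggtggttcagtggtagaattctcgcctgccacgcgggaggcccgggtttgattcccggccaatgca
n-TLcag9, chr1:171101838-171101920, minus strand: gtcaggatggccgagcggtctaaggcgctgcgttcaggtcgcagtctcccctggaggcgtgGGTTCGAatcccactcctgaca
n-TDgtc5, chr1:171102371-171102442, plus strand: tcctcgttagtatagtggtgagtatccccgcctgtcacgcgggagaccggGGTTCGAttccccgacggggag
n-TGgcc4, chr1:171044985-171045055, plus strand: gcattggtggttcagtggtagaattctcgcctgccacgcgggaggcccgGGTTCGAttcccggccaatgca
n-TEttc6, chr14:76152774-76152845, plus strand: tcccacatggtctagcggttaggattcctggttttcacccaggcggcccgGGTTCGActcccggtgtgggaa
The letters stood at base 62 of n-TLcag9, at base 51 of n-TDgtc5 and n-TEttc6 and at base 50 of n-TGgcc4, counted from the 5′ end, and were not found in n-TGgcc3. The genes n-TPtgg8 and n-TPagg7, not shown, also lacked them and held GGTTCAA instead. Their peak had a signal value of 17.2, above the 16.2 of the peak with n-TEttc6. Of the 44 tRNA genes within 1000 bp of a far intergenic peak, 30 held GGTTCGA, and the 44 genes had 34 distinct sequences of 71 to 106 bases. Other forms of the B box were not searched, so a gene without these letters may still hold the element.

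The typical far intergenic peak was weak and narrow. Its signal value, deposited by the authors and read here as fold enrichment over control, had a median of 3.96, with quartiles of 3.09 and 5.86 and a range from 1.70 to 24.0. Over all peaks of the list the median was 8.37. Peaks outside genes but within 10 kb of a start had a median of 5.09, and intronic peaks more than 5 kb from any start had 3.36. Far intergenic peaks therefore stood between these related sets in strength, above the deep intronic and below the nearer intergenic ones. Only 103 of them (7.08%) had a signal value of at least 10, against 44.3% of all peaks. The median width was 495.5 bp (quartiles 327 and 775.75 bp), against 1021 bp over all peaks, 511.5 bp in the nearer intergenic peaks and 453 bp in the deep intronic peaks. A width of at least 1000 bp was reached by 178 (12.2%), against 50.9% of all peaks. The −log10 q value of the authors had a median of 6.69, against 31.8 over all peaks. It was at least 5 for 902 far intergenic peaks (62.0%), with 80.2% of all peaks as the background.

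**Figure D1:**
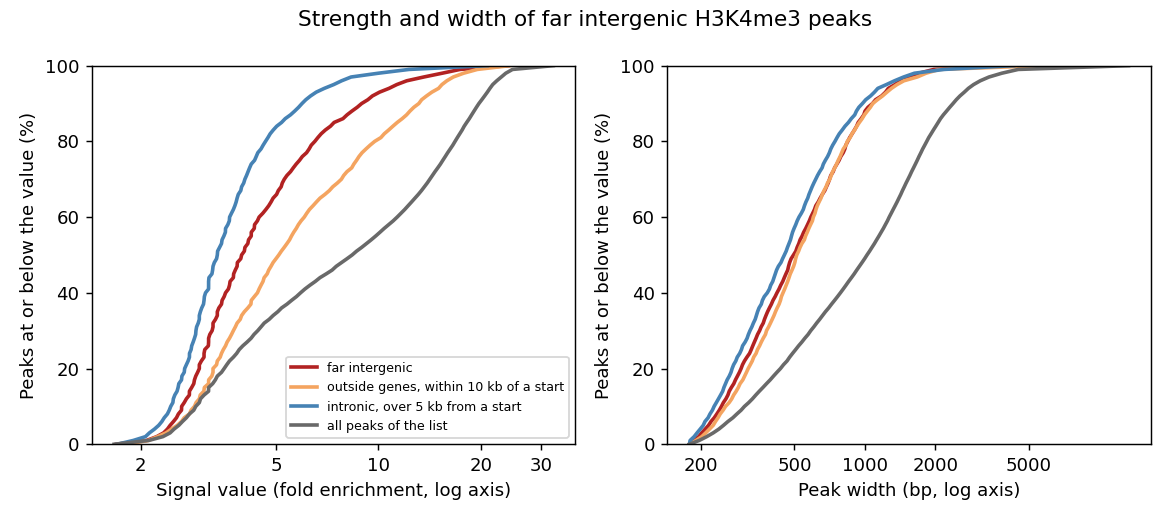
Cumulative share of peaks (vertical axes, %) by signal value (left, fold enrichment, log axis) and by width (right, bp, log axis) in the replicated list, for far intergenic peaks, peaks outside genes within 10 kb of a start, intronic peaks over 5 kb from a start, and all peaks. The curve of far intergenic peaks reaches 50% at a signal value of 3.96 and a width of 495.5 bp, and the curve of all peaks at 8.37 and 1021 bp.

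The 12 strongest far intergenic peaks had signal values from 17.5 to 24.0, which is above the median of 8.37 over all peaks. All 12 were present in the list of each pool. The strongest, at chr12:8640233-8641723, lay 32411 bp upstream of Pum2, which encodes an RNA-binding repressor of translation. It had 24.0 in the replicated list, 27.7 in G's list and 17.96 in that of H. RefSeq lists no gene over it, and 54.6% of the 1000 bp around its summit is marked as repeat in lower case, whose part in the signal was not tested. The fourth, at chr15:81521893-81524188 and 2296 bp wide, had 20.3 in the replicated list, 23.7 in G and 17.2 in H. Its nearest coding gene, 48271 bp away, was Rbx1, the RING subunit of cullin ubiquitin ligases. The sixth, at chr11:119055541-119057537, had 18.3, 20.3 and 14.4 in the same order and lay 14572 bp upstream of Cbx8, a Polycomb chromobox protein. The eleventh, at chr1:86487718-86488752, had 17.6, 21.1 and 15.4, with Ptma (prothymosin alpha) as its nearest coding gene at 37974 bp. These 4 were the members of the 12 with no RefSeq gene over them and no RefSeq start within 1000 bp. In all 12, the value in G's list was above that in H's list, and since each list was scaled on its own, the values are set side by side only.

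**Figure D2:**
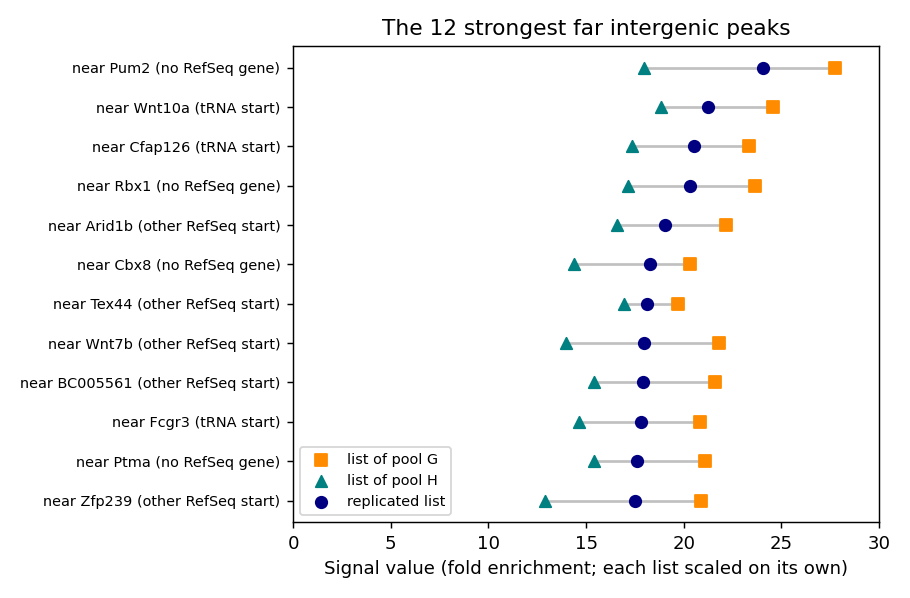
Signal value (horizontal axis, fold enrichment) of the 12 strongest far intergenic peaks in the replicated list (circles), in the lists of pool G (squares) and pool H (triangles); each row names the nearest protein-coding gene and, in brackets, the RefSeq annotation. The replicated values run from 17.5 to 24.0, and 3 of the 12 peaks lie at tRNA starts.

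RefSeq lists nuclear tRNA genes and a number of transcripts that GENCODE M21 does not, and 210 of the 1454 peaks (14.4%) lay within 1000 bp of a RefSeq start. A further 176 lay in the body of a RefSeq gene, and 1068 (73.5%) touched no RefSeq gene. The share at a RefSeq start was 38 of 319 peaks with a signal value below 3 (11.9%, 95% interval 8.57 to 15.98), 71 of 640 with 3 to 5 (11.1%), 62 of 392 with 5 to 10 (15.8%) and 39 of 103 with at least 10 (37.9%, 95% interval 28.5 to 48.0). The strongest peaks were thus the ones most often beside a RefSeq start. Over all peaks of the list, 68.5% lay within 1000 bp of one.

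The tRNA peaks were the strongest of these sets. Their 31 signal values ran from 2.47 to 21.2 with a median of 9.32, against 4.52 at the other RefSeq starts, 3.75 in RefSeq gene bodies and 3.93 where RefSeq lists no gene. The median width was 1175 bp, against 596, 498 and 471 bp in the other sets. Pool G's list held all 31 and pool H's list 30. The 1 missing from H, near Zfp213, had a signal value of 3.07 and 3.98 in G. In the whole list, 0.676% of peaks lay at a tRNA start, against 2.13% of far intergenic peaks (95% interval 1.45 to 3.01) and 2.82% of the nearer intergenic peaks, so this was not particular to the far ones. Of the 403 tRNA genes of RefSeq, 227 (56.3%) had some peak of the list within 1000 bp, and 44 had a far intergenic one.

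The peak with a tRNA gene nearest to Wnt10a, chr1:74816576-74817750, holds n-TGgcc3 and had 21.2 in the replicated list, 24.6 in G and 18.8 in H. The coding start of Wnt10a, a secreted signalling ligand, lay 23213 bp away and had no peak within 1000 bp. The peak near Cfap126, chr1:171101635-171103459, holds n-TLcag9, n-TDgtc5 and 2 more tRNA genes, n-TGtcc3 and n-TEctc6, and had 20.5, 23.3 and 17.4. On the same chromosome, the peak near Fcgr3, an Fc receptor gene, holds n-TGgcc4 and had 17.8, 20.8 and 14.7. The peak near Nufip1 on chromosome 14 holds n-TEttc6 and had 16.2, 19.0 and 13.5. The tRNA gene stood beside the summit rather than under it: over the 44 genes the median distance from the summit to the tRNA start was 342 bp, and 30 of the genes overlapped the peak. None of the 31 summit windows of 300 bp held GGTTCGA.

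The widest far intergenic peak was also a tRNA peak. It spanned 3958 bp at chr3:96499433-96503390, upstream of Hfe2 (hemojuvelin), held n-TKctt16, n-THgtg8, n-TGtcc7 and n-TEctc13, and had 12.1 in the replicated list, 13.1 in G and 15.1 in H. It was among the 85 peaks with the higher value in H's list. Chromosome 13 held 16 of the 31 tRNA peaks, in a stretch that also carries Gpx5, Trim27, olfactory receptor and histone genes. The second widest peak, 2700 bp near the olfactory receptor gene Olfr1368, held n-TEctc11 and n-TFgaa4 and had 17.2, 17.7 and 14.7. At the low end of the tRNA set were a peak near Abt1 with 2.47, 2.76 and 2.10 and a peak near Gpx5 with 2.999, 2.50 and 3.58. The value of 16.6 in G for the tRNA peak near Dhx37, which had 3.49 in the replicated list and 3.78 in H, belongs to a wider peak of 3462 bp in G's list. A pool value is that of the pool peak with the largest overlap, so it may describe a longer stretch than the peak itself.

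Of the 179 peaks at other RefSeq starts, 148 were at long noncoding RNAs, 28 at protein-coding genes, 2 at miscellaneous RNAs and 1 at a small nucleolar RNA. The strongest lay at the start of the noncoding Gm34507, 85166 bp upstream of Arid1b, which encodes a subunit of the BAF chromatin remodelling complex, and had 19.1, 22.2 in G and 16.6 in H. The peak at the noncoding Gm8273, 41526 bp upstream of the chromatin remodeller gene Chd7, was 2510 bp wide and had 16.5, 18.4 and 15.6. Starts of coding genes were found by RefSeq for Tln2 (talin 2, a linker of integrins to actin), with 16.6, 18.8 and 14.5, and for Arhgap32, with 17.4, 20.1 and 15.4. For both, the nearest protein-coding start of GENCODE was of the same gene, 72452 bp away for Tln2 and 82525 bp for Arhgap32, and was not marked. Starts of processed pseudogenes lay nearer, at 65539 bp (Gm47110) for Tln2 and 11247 bp (Gm47481) for Arhgap32. A peak at Gm40371, 55444 bp upstream of Ezh2, the H3K27 methyltransferase of Polycomb complex PRC2, had 17.4, 17.0 and 8.42. These peaks count as far intergenic by the GENCODE rule only.

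When RefSeq genes and 10 kb around their starts were also left out, 926 peaks remained, with a median signal value of 3.84 and a median width of 467.5 bp. Besides those near Pum2, Rbx1, Cbx8 and Ptma, the strongest lay near Klrb1c, Vrk1, Alg2, Fer, Nkain1 and Rps6ka1, with 15.1 to 17.4. The peak near Vrk1, a nuclear kinase gene, had 16.3 in the replicated list, 20.1 in G and 13.7 in H. The peak near Klrb1c, a receptor gene of natural killer cells, had 17.4, but 10.6 in G and 15.8 in H, and was the strongest of the peaks with the higher value in H. Its coding neighbour was not marked, and 42.0% of its window was lower-case repeat sequence.

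Few far intergenic peaks were rich in CpG. A peak was called CpG-rich where the 1000 bp around its summit reached a GC share of 0.5 and a CpG ratio (observed over expected) of 0.6. This held for 144 (9.90%, 95% interval 8.42 to 11.6), against 48.8% of all peaks, 34.9% of the nearer intergenic and 3.63% of the deep intronic peaks. The median GC content was 49.3%, against 56.1% over all peaks, and the median CpG ratio was 0.394, against 0.609. The CpG-rich ones were stronger and wider, with a median signal value of 8.13 and a median width of 839 bp, against 3.82 and 471 bp in the other 1310. By strength, CpG-rich peaks made up 8 of 319 below 3 (2.51%), 32 of 640 with 3 to 5 (5%), 53 of 392 with 5 to 10 (13.5%) and 51 of 103 with at least 10 (49.5%). Only in the last group was the share near the 48.8% of the whole list, which holds peaks of every strength. The share among all peaks with a signal value of at least 10 is not given here. Of the 31 tRNA peaks, 7 were CpG-rich (22.6%, 95% interval 9.59 to 41.1), although their median signal value was above that of the CpG-rich peaks.

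**Figure D3:**
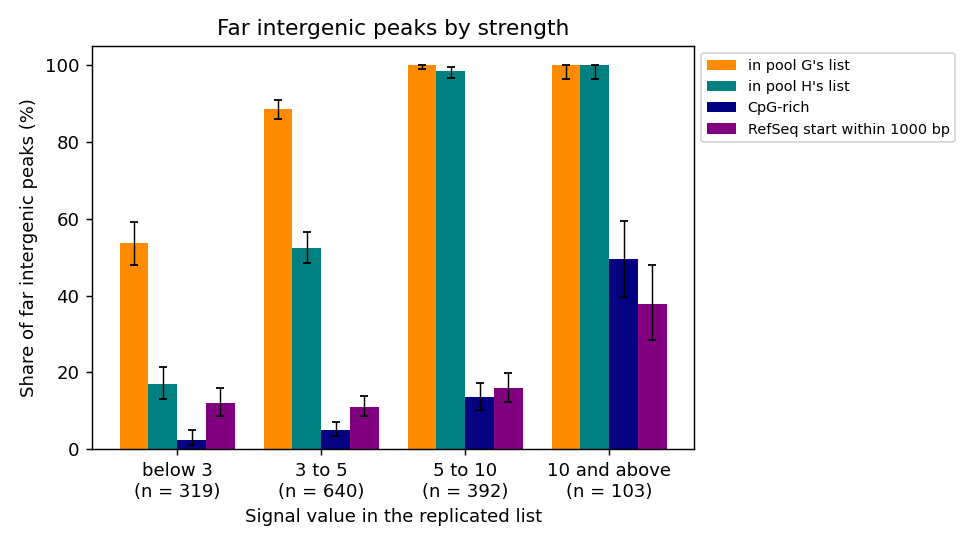
Share of far intergenic peaks (vertical axis, %) found in pool G's list, found in pool H's list, rich in CpG, or within 1000 bp of a RefSeq start, in 4 classes of signal value in the replicated list (horizontal axis), with exact 95% binomial intervals as error bars. From the weakest to the strongest class the share in H rises from 16.9% to 100% and the CpG-rich share from 2.51% to 49.5%.

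Width and strength did not always go together. The fourth widest peak, chr3:115765957-115768445, spanned 2489 bp upstream of S1pr1, which encodes a sphingosine 1-phosphate receptor prominent on endothelium, but had only 5.95 in the replicated list, 3.17 in G and 5.72 in H. Its CpG ratio was 0.114 and its GC content 37.5%, both low for the set. H's list held a peak of 524 bp there, against 2557 bp in G's list. In contrast, the peak of 2295 bp at chr12:85485598-85487892, on the downstream side of the immediate early gene Fos and 10687 bp from its nearest start, was CpG-rich and had 11.1, 14.4 and 9.24. A narrow but strong peak lay near Wnt7b, with 687 bp, 17.9 in the replicated list, 21.8 in G and 13.9 in H, at the start of the noncoding D130051D11Rik. Of the 12 strongest, it was the narrowest.

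Pool G's list held 1233 of the far intergenic peaks (84.8%, 95% interval 82.9 to 86.6), with 92.5% of all peaks as the background. Pool H's list held 879 (60.5%, 95% interval 57.9 to 63.0), with 79.9% as the background. Both held 844 (58.0%), against 78.5% of all peaks. A further 389 were in G's list only (26.8%), 35 in H's list only (2.41%) and 186 in neither (12.8%). The shares over all peaks were 14.0%, 1.33% and 6.15%, and those of deep intronic peaks 34.5%, 3.48% and 19.3%. Presence followed strength: of the peaks with a signal value below 3, 171 of 319 were in G's list and 54 in H's list, and of those with 3 to 5, 567 and 336 of 640. All 392 peaks with 5 to 10 were in G's list and 386 of them in H's list, and all 103 with at least 10 were in both. The replicated list was made from both pools, so this gradient is no independent check of the peaks. Median signal values were 5.36 in both lists, 3.26 in G only, 3.17 in H only and 2.78 in neither, and the median widths were 700, 379, 311 and 253.5 bp.

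Over the 844 peaks of both lists, the signal value in G had a median of 6.48 and that in H of 4.63. Across these peaks, which share the 2 pools and are not independent samples, Pearson's r of log2 values was 0.83 and Spearman's coefficient 0.81. Over all 19630 peaks in both lists both were 0.89. The log2 difference of G over H had a median of 0.48 and an SD of 0.38 across the far intergenic peaks. It had a median of 0.51 and an SD of 0.40 across all such peaks, so the offset of G over H was not particular to the far intergenic ones. In 85 (10.1%) the value in H was the higher, against 1152 (5.87%) of all peaks in both lists. Among the 85 were peaks near Actb (11.6 in the replicated list, 9.96 in G, 13.5 in H) and Spen (10.7, 9.96 and 10.3).

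**Figure D4:**
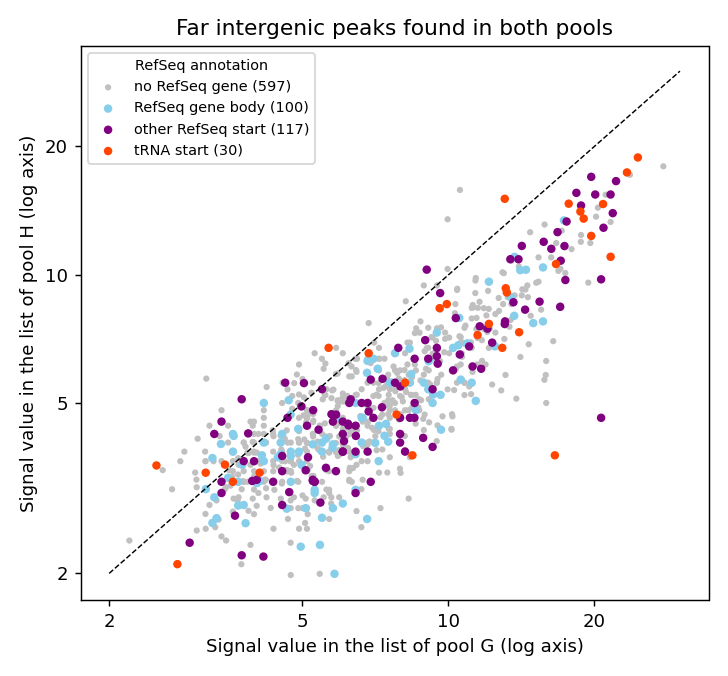
Signal value of the 844 far intergenic peaks found in both pools, in pool G's list (horizontal, log axis) and in pool H's list (vertical, log axis), coloured by RefSeq annotation, with a dashed line of equal values. Most points lie below the line, with 85 above it, and the tRNA peaks spread over the whole range, with many at the upper end.

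The 5 strongest peaks missing from H's list were 207 to 531 bp wide, against a median of 495.5 bp over all far intergenic peaks. They lay near Drd5 (a dopamine receptor gene; 6.14 in the replicated list, 6.72 in G, 266 bp), Ifit1 (an interferon-induced gene; 5.77 and 7.01, 522 bp), Adgb (5.54 and 6.47, 207 bp), Nlgn3 (neuroligin 3; 5.38 and 7.57, 421 bp) and Hhipl2 (5.11 and 6.83, 531 bp). The peak near Ifit1 lay 310 bp from a RefSeq start of Ifit1bl1. The strongest of the 35 found in H only lay near Bcl9 (4.42 and 4.05 in H), Bbs5 (4.40 and 4.43) and Sox6 (4.37 and 4.86). Of the far intergenic peaks found in 1 pool only, the one near Drd5 had the highest signal value in the replicated list.

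By its own list, pool G had 1554 far intergenic peaks among 24826 (6.26%) and pool H 925 among 21505 (4.30%), a share of 5.28% ± 1.38 (SD, n = 2). The median signal value was 4.55 in G and 4.53 in H, and the median width 582 and 532 bp. CpG-rich peaks were 9.27% of those of G and 14.6% of those of H. Of H's far intergenic peaks, 873 (94.4%) overlapped a peak of G's list, and of G's, 829 (53.3%) overlapped a peak of H's list.

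The median distance to the nearest transcript start of any gene was 21795.5 bp, and to the nearest protein-coding start 37930.5 bp. There were 647 peaks at 10000 to 20000 bp, 587 at 20000 to 50000 bp, 185 at 50000 to 100000 bp and 35 beyond. The median signal values of these classes were 4.23, 3.91, 3.55 and 3.75. A signal value of at least 10 was reached by 53 (8.19%), 46 (7.84%), 3 (1.62%) and 1 (2.86%). The last class is small, and the 95% interval of its share is 0.0723 to 14.9%. The −log10 q was at least 5 for 66.3%, 61.3%, 50.3% and 57.1%. The shares in H's list were 65.5%, 57.9%, 49.7% and 65.7%. The farthest peak, at chr4:50826122-50827099, lay 363008 bp from the nearest GENCODE start and 389579 bp from Cylc2, had 3.37, 4.66 in G and 4.63 in H, and overlapped the start of the noncoding Gm42288 of RefSeq. The next in order without such a start were 2 neighbouring peaks about Tox3, an HMG-box gene, at 300896 and 300477 bp. The first had 3.07 and a peak in H only (3.47), and the second had 3.36 and a peak in G only (3.60). The 5 peaks just inside the limit of 10000 bp, 10006 to 10035 bp from a start and nearest to Tbx21, Thap1, Zfp184, Aqp11 and Tor1b, had signal values of 8.84, 5.59, 6.87, 4.11 and 11.7. The 5 just outside it, 9988 to 9961 bp away and nearest to Psd2, Adipoq, Sox13, Tmem182 and Kdr, had 4.998, 3.55, 5.29, 5.67 and 2.23.

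The nearest gene of any type was protein-coding for 613 peaks (42.2%), a processed pseudogene for 277 (19.1%) and a lincRNA for 275 (18.9%). Counting coding genes only, the 1454 peaks had 1081 different nearest genes, 4.93% of the 21938 annotated. On the upstream side lay 846 peaks (58.2%), against 47.3% of all peaks, 80.5% of the nearer intergenic and 36.9% of the deep intronic peaks. The rule leaves out gene bodies, which lie downstream of starts, and its part in this share was not tested. The gene of the nearest coding start was marked at any of its starts for 1227 far intergenic peaks (84.4%, 95% interval 82.4 to 86.2). Over all peaks this share was 95.5%, and many of those lie at a coding start themselves. Whether the nearest start itself had a peak was not counted. Of the 1081 genes, 901 (83.3%) were marked at a start, against 63.1% of all coding genes. Nearest means nearest along the chromosome only, and no contact or expression was measured.

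For 821 of these genes there was 1 far intergenic peak, and for 74 there were at least 3. Nfe2l3, a CNC-bZIP transcription factor gene, had 9, Gpx5 had 7, and Wnt7b and the zinc finger gene Zfp217 had 6 each. S1pr1, Adgrl2, Bcor, Chd7 and Hnrnpa3 had 5 each. Many of these stood close together: 232 of the 1454 peaks had another peak within 1000 bp, and there were 9 groups of at least 4 far intergenic peaks with gaps of at most 10000 bp. The group of 7 near Nfe2l3 spanned 10545 bp with signal values from 1.78 to 7.57, and 5 of the 7 were in H's list. The group near Cbx8 spanned 5700 bp and held 4 peaks of 3.17 to 18.3. A pair of stretches of chromosome 13 near Gpx5 and Trim27 held 4 peaks each, with 4 tRNA peaks in each stretch. Most far intergenic peaks were alone all the same, with 1001 (68.8%) having no other peak within 10000 bp, against 44.2% of all peaks. The rule keeps far intergenic peaks more than 10000 bp from every GENCODE start, whereas 68.5% of all peaks lay within 1000 bp of a RefSeq start. Part of the difference is therefore set by the rule.

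Genes of the heart's cell types were among the neighbours. Of 20 endothelial genes, 7 were the nearest coding gene of at least 1 far intergenic peak (35.0%, with 4.93% of all coding genes beside it), with 10 peaks of median signal value 4.78. The same held for 9 of 28 signalling genes (32.1%, 12 peaks, median 3.20), 7 of 30 cardiac transcription factors (23.3%, 10 peaks, median 3.22), 3 of 16 immune and blood genes (18.8%, 4 peaks, median 3.67) and 3 of 18 fibroblast and mural genes (16.7%, 4 peaks, median 5.05). It held for 4 of 35 developmental factors (11.4%, 8 peaks, median 3.36) and 3 of 27 contractile, channel and calcium genes (11.1%, 3 peaks, median 2.44). Against the median of 3.96 over all far intergenic peaks, 2 of the 7 lists lay above it. The lists are small, and the length of intergenic sequence around each gene was not taken into account.

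In the endothelial list, the peak nearest to Klf4, 118827 bp upstream at chr4:55651293-55652729, had 11.2 in the replicated list, 13.4 in G and 8.87 in H. A second peak beside it had 9.08 and overlapped the same peak of G's list. The peak near Sox17, a transcription factor of arterial endothelium, lay 74026 bp away and had 7.58, 9.64 in G and 5.24 in H. The stronger of those near Ets1, an ETS factor, lay 243940 bp away and had 6.28, 7.90 and 4.59. For these peaks of Klf4, Sox17 and Ets1, a lincRNA start lay nearer than the coding one. The peak near Flt1, a VEGF receptor, lay 31987 bp upstream, with a lincRNA start nearer at 12482 bp, and had 5.81, 5.56 and 5.23. At the weak end, the peak near Tek, the angiopoietin receptor, had 3.51, 3.04 and 4.13, and the peak near the Notch ligand gene Dll4 had 3.55 and was in neither pool's list.

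Among fibroblast genes, the peak nearest to Dcn, 165474 bp upstream at chr10:97313138-97314135, had 14.8, 14.7 in G and 12.6 in H, the highest of all listed genes. It was not CpG-rich, with a ratio of 0.570 and a GC content of 46.1%. The peak near Pdgfra, a receptor gene of fibroblasts, had 5.29, 6.25 and 4.24, and the one near the collagen gene Col1a1 had 4.13, 5.49 and 3.86. Of the signalling genes, Smad7, an inhibitor of TGF-beta signalling, had a CpG-rich peak 23917 bp upstream with 10.2, 13.01 and 10.1. The stronger of the peaks near Smad6, which inhibits BMP signalling, had 4.23 and 5.68 in G and was not in H's list.

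Among peaks nearest to cardiac transcription factors, the highest lay 164805 bp upstream of Irx3, with 6.87, 8.12 in G and 5.99 in H. A lincRNA start lay nearer to it. The next was near Gata6, 180516 bp from its nearest start, with 6.83, 8.71 and 4.82. The peak near Mef2c, which activates muscle genes, lay 560541 bp upstream and had 4.37, 5.92 and 3.77, and the stronger of the peaks near Nr2f2, an atrial and venous factor, had 4.0004, 4.77 and 5.21. Of the contractile genes, Myl3, the ventricular essential light chain, was the nearest coding gene of a peak 12582 bp away that had 6.76, 8.67 and 4.90. Among the remaining lists, Runx3 had 5.96, 6.63 and 5.01, and Foxo1 had 5.74, 7.53 and 5.24. At their own start, 20 of 20 endothelial, 15 of 18 fibroblast and mural, 28 of 30 cardiac transcription factor and 5 of 16 immune and blood genes were marked, against 63.1% of all coding genes. Ptprc, a leukocyte phosphatase gene with a far intergenic peak of 3.21, was not.

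The rule leaves 1034.7 Mb of the reference genome, 39.1% of the known sequence, as space for far intergenic peaks, with Y included. There were 1.41 such peaks per Mb of this space, against 14.6 other peaks per Mb elsewhere. Chromosome 11 had 2.78 per Mb, chromosome 19 had 2.56 and chromosome 13 had 2.38, while X had 0.492. Chromosome Y, which female mice lack, held no peak of any kind. Its 56.3 Mb of this space and its other sequence therefore lower both averages. On chromosome 11 other peaks were dense too, with 23.5 per Mb elsewhere, whereas chromosome 13, with 13.2, was below the average for other peaks.

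The summit windows of 300 bp were searched on both strands for short motifs, each given with its share in far intergenic peaks, in all peaks and in deep intronic peaks. GGGCGG, the GC box, was in 21.2%, 38.8% and 13.2%. AGATAA, bound by GATA factors, was in 14.4%, 7.95% and 16.4%. CTATTTA, a MEF2 motif, was in 3.71%, 1.86% and 4.05%, and GGAATGT, bound by TEAD factors, was in 5.30%, 2.89% and 5.30%. TATAAA, the TATA box, was in 12.2%, 6.94% and 14.6%, and CCAAT in 28.1%, 22.2% and 27.5%. CACGTG, an E-box, was in 6.19%, 5.68% and 6.33%, CCGGAAG, an ETS motif, in 5.50%, 6.96% and 3.58%, and AGGGGGC, part of the CTCF motif, in 7.29%, 9.24% and 5.09%. Among peaks that are neither far intergenic nor CpG-rich, AGATAA was in 12.3%, CTATTTA in 2.80% and GGAATGT in 3.84%, against 15.3%, 4.12% and 5.34% of the far intergenic peaks that are not CpG-rich. Base composition moved with these shares, and its part in them was not tested. A match is a run of letters and not a measured binding site.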

How the data were processed

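The 4 deposited peak lists (mm10) were a pseudoreplicated list for pool G, one for pool H, one for both pools, and a replicated list of both, per the labels of the library notes. The caller, its version and its threshold are not given in the sources used here. Signal values deposited by the authors were taken as ratios over control (fold enrichment); the files do not name the column, so this is an assumption. The deposited −log10 q values show 667 peaks, 66 of them far intergenic, with q over 0.05. Read depth was not given, and technical replicates had no values of their own.

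Gene bodies and starts came from GENCODE M21. RefSeq genes (GRCm38.p6, the same build) served as second annotation and for sequence. A peak was in a pool's list where they shared at least 1 bp. A start was marked where a peak lay within 1000 bp, and a gene was marked where any of its starts was. Peaks, gene lists (7, with 174 genes) and rules were chosen with earlier results of these data known. The regions named were the 12 strongest, the 8 widest, the 8 farthest, up to 12 nearest to a listed gene and the 5 strongest absent from H, not all of which are given. The RefSeq classes, the tRNA set, the B box letters, the classes of signal and distance, and the other regions named were added after their values were seen. Summit windows shown were the first of the strongest and listed-gene sets, in order of signal. The tRNA genes shown were not taken by that rule, and some stronger tRNA peaks were passed over. Interval code was tested on simulated data against bedtools. Work was done with bedtools 2.31.1 and samtools 1.23.1, and in Python 3.11.15 with pandas 2.3.3, scipy 1.17.1, numpy 2.4.6 and matplotlib 3.10.9. The alternatives were other distances, lists, gene sets, overlaps and CpG bounds, and a −log10 q of at least 5. Some results are not reported here.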

Additional observations from a re-analysis of the deposited data

How the results depend on the processing

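Of 77 alternative values, 37 kept their value within 1.5 times for the count or within 1 SD of the pools or the binomial interval for the others, and 40 moved. For the median signal value the SD of the pools was only 0.0116 (n = 2), so a change from 3.96 to 4.05 counted as moved. Such an SD of 2 close values does not measure how certain the median is. The 1454 peaks became 807 beyond 20000 bp, 902 with a −log10 q of at least 5, 2957 with protein-coding genes only, and 926 when RefSeq genes were also avoided, an alternative chosen after seeing the data. With 1 pool's list in place of the replicated one, the number was 925 (H) to 1554 (G), and the medians were 4.53 to 4.55 for signal and 532 to 582 bp for width.

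With a −log10 q of at least 5, 98.1% were in G's list and 83.7% in H's list, the median signal value was 5.22, the median width 654.5 bp and the CpG-rich share 14.4%. With the pseudoreplicated list of both pools, the values were 87.4% in G, 55.0% in H and a median signal value of 3.77. Of G's own peaks 53.3% were in H's list, of H's own 94.4% in G's list, and the CpG-rich share was 9.27% to 14.6%. Beyond 20000 bp, 56.4% were in H's list, the median signal value was 3.83 and the median distance 34175 bp; beyond 5000 bp, they were 4.05 and 15680 bp. With coding genes only, 64.3% were in H's list and the medians were 4.23, 537 bp and 38835 bp. Of these peaks, 15.4% were CpG-rich and 82.1% had a nearest coding gene marked at a start. Apart from RefSeq genes, 82.4% were in G's list, the median signal value was 3.84 and 8.10% were CpG-rich. An overlap of 50% of both peaks gave 78.5% in G and 56.5% in H. Joined peaks had a median width of 547.5 bp. The CpG-rich share was 13.3% over the whole peak, 14.3% with a ratio of at least 0.5 and 5.09% with 0.7. The cause of these moves, beyond what each alternative leaves out, was not tested.

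No paired analysis was possible because the series has 1 condition, and nothing is compared across groups by a test. Depth was not given, so absence from a pool's list is absence at that pool's depth and threshold only. In every alternative above drawn from the replicated list, the median signal value stayed below that of all its peaks (8.37). The other lists have their own scales. Far intergenic peaks had a median of 4.55 in G's list, against 9.88 over all peaks of that list. The medians were 4.53 against 8.89 in H's list, and 3.77 against 7.59 in the pseudoreplicated list of both pools.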

Other observations

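The pools' own lists held far intergenic peaks that the replicated list does not. G's list had 361 of them, with a median signal value of 3.42 and a highest of 5.68, and 13 reached 5. H's list had 19, with a median of 3.08 and a highest of 3.47. The pseudoreplicated list of both pools had 266, with a median of 2.79 and a highest of 4.14.

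The weakest far intergenic peaks of the replicated list lay near Plk2 (1.70, with 3.15 in G), Nfe2l3 (1.78, in neither pool's list) and Aqp1 (1.88, with 3.31 in G). Aqp1 encodes a water channel of endothelium, and its start lay 10098 bp from the peak. None of these 3 was in H's list.

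Some listed genes were remote. The peak counted under Klf4 with a signal value of 3.75 lay 581202 bp from its start, and the peak counted under Irx1 with 3.36 lay 500590 bp away. Repeat sequence took up more than 50% of the 1000 bp window in 9 far intergenic peaks (0.619%), against 0.412% of all peaks.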
